A study of Homo sapiens with 2 samples.

Results

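The miRPlus probes are capture oligonucleotides that the maker of a commercial miRNA array designed against its own candidate human small RNAs, outside the public miRNA catalogue. They were taken as every probe whose name in the deposited workbook contains hsa-miRPlus-, which gave 48 of the 2661 probes with values. The name alone sets membership and no measured value does, though the set was chosen with earlier results of these data known. They were set beside the 1225 probes named hsa-miR- or hsa-let-, called catalogued here, and the named human probes below are both sets together, 1273 in all.

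The RNA came from H460, a human non-small cell lung cancer line, 48 hours after treatment either with sulforaphane, an isothiocyanate from broccoli and related plants and an activator of the antioxidant regulator NRF2, or with vehicle. The labels used here state no dose. Each condition was 1 array, so differences could not be set against the variation between cultures, and no test or p-value is given. All probes were read in the Hy3 channel, and the number of arrays limits the precision.

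MicroRNAs are short RNAs that guide Argonaute proteins to messenger RNAs, mainly through a seed near the 5′ end. They are cut from a hairpin whose arms can each give a mature RNA, and older names marked the less abundant arm with an asterisk. Array makers added candidate sequences of their own, under private serial names, to those of the public catalogue. A probe that stays dark shows only that little matching RNA was captured, and since capture affinity varies from probe to probe, a brightness rank is a rank of spots and not of RNA amounts.

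The miRPlus names fall into series by their opening letter. There were 11 probes in the C series, 10 in I, 8 in A, 8 in J, 4 in D, 4 in G and 1 each in B, K and L. An asterisk closed 14 of the names, 2 had the arm suffix 3p, 2 had 5p and 30 had no suffix. For each of the 14 names with an asterisk, the number after the letter is also the number of a catalogued miRNA on the array. The sources used here do not say what the maker meant by that number, and the match is one of names only, made after the values had been seen.

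Sequences of the miRPlus probes themselves were not used here. Shown instead are the hairpins of the catalogued miRNAs whose numbers 3 of the brighter asterisk names carry, from RefSeq on assembly GRCh38.p14. Capitals mark the mature RNAs that RefSeq lists for each hairpin, which shows whether both arms are annotated. The first belongs to the number of miRPlus-I137*, the second to miRPlus-I107* and the third to miRPlus-J98*.

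MIR137 hairpin: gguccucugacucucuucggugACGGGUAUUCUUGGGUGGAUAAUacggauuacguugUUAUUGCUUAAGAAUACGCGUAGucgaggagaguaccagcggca
MIR107 hairpin: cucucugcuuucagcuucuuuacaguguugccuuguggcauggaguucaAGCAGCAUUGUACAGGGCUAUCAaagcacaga
MIR98 hairpin: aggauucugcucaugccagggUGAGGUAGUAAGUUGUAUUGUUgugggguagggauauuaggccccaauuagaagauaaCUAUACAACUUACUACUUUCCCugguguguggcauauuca

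MIR137 lies on the minus strand at chr1:98046070-98046171, MIR107 on the minus strand at chr10:89592747-89592827 and MIR98 on the minus strand at chrX:53556223-53556341. RefSeq lists mature RNAs from both arms for MIR137 and MIR98, and 1 mature RNA, from the 3′ side of the hairpin, for MIR107. The mature RNAs of MIR137, with the seed (all bases after the first, up to the eighth) in capitals, read as follows.

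hsa-miR-137-5p: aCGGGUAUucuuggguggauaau
hsa-miR-137-3p: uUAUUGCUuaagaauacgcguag

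Of the 14 asterisk names, 13 matched a RefSeq hairpin gene by number. The RefSeq records used here listed 2 mature RNAs for 9 of these genes and 1 for 4. For MIR135A2 the only one listed was hsa-miR-135a-2-3p, although the array also has a probe named hsa-miR-135a-5p. A count of 1 therefore does not show that the other arm gives no mature RNA.

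Few miRPlus probes were above the detection floor, and few of the named human probes were. A probe was called detected where its normalized intensity exceeded a floor, set for each array at the 95th percentile of its 143 viral miRNA probes. The floor was 5.52 (684 background-subtracted units) on the sulforaphane array and 6.44 (718 units) on the vehicle array. The normalized intensity is the authors' background-subtracted intensity divided by 1 factor per array. On the sulforaphane array 5 of the 48 miRPlus probes (10.4%) were detected, against 16.7% of the named human probes. On the vehicle array 6 (12.5%) were detected, against 14.3%. On both arrays 5 (10.4%) were, against 13.2%. The viral probes that set the floor passed it at 8 of 143 (5.59%) on each array and 7 (4.90%) on both. Some probes called detected may therefore lack their intended RNA. The catalogued probes alone gave 207 of 1225 (16.9%) with sulforaphane, 176 (14.4%) with vehicle and 163 (13.3%) on both. The miRPlus shares minus the catalogued shares were -6.48, -1.87 and -2.89 percentage points. With so few detected probes, 1 more or less would move the vehicle share by more than its gap to the catalogued share.

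The median miRPlus probe was dim on both arrays. It read a normalized 0.671 with sulforaphane and 0.587 with vehicle, against 0.806 with sulforaphane and 0.780 with vehicle for the catalogued probes. The upper quartile was 1.41 with sulforaphane and 1.54 with vehicle for miRPlus probes, and 2.59 with sulforaphane and 2.78 with vehicle for catalogued ones. The viral probes were close to the miRPlus probes. Their median was 0.609 with sulforaphane and 0.628 with vehicle, and their upper quartile 1.25 with sulforaphane and 1.52 with vehicle. Foreground was under 2 times the local background for 17 of the 48 miRPlus probes (35.4%) on each array, and for 26.3% of the catalogued probes with sulforaphane and 26.9% with vehicle. Local background itself was the same for both sets on the vehicle array (median 41 units) and close on the sulforaphane array (62.8 for miRPlus and 61 for catalogued probes). The means ran the other way from the medians, at 6.78 with sulforaphane and 5.46 with vehicle for miRPlus, against 6.38 with sulforaphane and 5.02 with vehicle for catalogued probes. The miRPlus means rest heavily on 1 of the 48 probes, miRPlus-A1086, which read 156 with sulforaphane and 133 with vehicle. The 5 detected miRPlus probes held 3.50% of the summed normalized intensity of all named human probes with sulforaphane and 3.41% with vehicle.

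The array also carried 7 probes named as negative controls, which give a second view of the dark end. The highest of them read 1.49 with sulforaphane and 2.19 with vehicle, and their medians were 0.371 with sulforaphane and 0.238 with vehicle. It was the same probe on both arrays and lay well apart, as the next highest read 0.460 with sulforaphane and 0.305 with vehicle. On each array 11 of the 48 miRPlus probes (22.9%) were above the highest negative control, against 34.1% of the catalogued probes with sulforaphane and 27.9% with vehicle. At the other end, 6 miRPlus probes with sulforaphane and 7 with vehicle were no brighter than the median negative control. Between the median and the highest negative control lay 31 miRPlus probes with sulforaphane and 30 with vehicle. The upper end of that range rests on the highest control alone.

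The 5 probes detected on both arrays were 3 of the A series, 1 of the G series and 1 of the C series. The sources used here do not name the RNA that each was designed against. The brightest, miRPlus-A1086, read 156 with sulforaphane and 133 with vehicle (19379 and 14844.5 background-subtracted units). It ranked 7th of the 1273 named human probes on the sulforaphane array and 6th on the vehicle array. The brightest viral miRNA probe read 151 with sulforaphane and 108 with vehicle, so brightness alone does not show that the intended RNA was captured. The log2 ratio of miRPlus-A1086, sulforaphane over vehicle, was 0.23, in the lower part of the detected set. It stood 111th from the top of the 168 named human probes detected on both arrays.

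The neighbouring serial number, miRPlus-A1087, read 50.9 with sulforaphane and 39.7 with vehicle, which ranked it 30 with sulforaphane and 29 with vehicle. Its log2 ratio was 0.36. miRPlus-A1086 and miRPlus-A1087 thus had ratios a little under the median of the catalogued probes detected on both arrays, 0.38.

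miRPlus-A1015 was the detected candidate with the widest gap between the arrays. It read 38.8 with sulforaphane and 18.2 with vehicle (4817 and 2029.5 background-subtracted units), a ratio of 2.13, or 1.09 on the log2 scale. Its rank in brightness was 44 with sulforaphane and 78 with vehicle. Among the 168 named human probes detected on both arrays it had the 5th highest ratio, after catalogued probes that included miR-4324 (log2 ratio 1.47), miR-32-3p (1.32) and miR-943 (1.31). Its local background was 64.5 units with sulforaphane and 40 with vehicle, near the medians of all probes on those arrays (61 with sulforaphane and 41 with vehicle).

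miRPlus-G1246-3p, the brightest candidate named with an arm, read 26.7 with sulforaphane and 19.8 with vehicle, a log2 ratio of 0.43. Its local background with sulforaphane, 81.5 units, was the highest among the miRPlus probes there, against 3315 units of signal. miRPlus-C1110 was the dimmest of the 5, at 11.9 with sulforaphane and 8.06 with vehicle, with a log2 ratio of 0.56. It was 216% of the floor with sulforaphane and 125% with vehicle.

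None of the 48 miRPlus spots reached the scanner limit on either array, whereas 1 catalogued probe did. The 5 ratios therefore are not limited by saturation.

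By the size rule of 2-fold on the authors' scale, 1 of the 5 miRPlus probes detected on both arrays was higher with sulforaphane (miRPlus-A1015) and 0 were lower. The background rates were 3.57% higher (6 of 168) and 1.19% lower (2 of 168) among named human probes detected on both arrays. The balance of these calls turns with the scale: the catalogued probes gave 5 higher and 2 lower on the authors' scale, 2 and 4 after scaling by the median of the detected named human probes, and 0 and 9 after spike-in scaling. With 5 probes, 1 call says nothing about the miRPlus set as a whole. All 5 log2 ratios were above 0 on the authors' scale, as were 82.7% of the 168, and 4 of the 5 turned below 0 under another scaling. The median of the 5 was 0.43, against 0.38 for the 163 catalogued probes, a difference of 0.05. The range of the 5 was 0.23 to 1.09 and that of the catalogued probes -1.17 (miR-937-3p) to 1.47 (miR-4324), with SDs between probes of 0.33 and 0.39.

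The common shift above 0 depends on the scale. Spike-in probes, which capture RNA added to the sample and none from the cells, gave a median of 0.68 and an SD of 0.20 between the 41 of them above the floor. Over 7 other scalings of the arrays, the log2 ratio of miRPlus-A1015 ranged from 0.39 to 1.25 and was below 0 under none, but it stayed past 2-fold under 1, the unnormalized intensities. The ratio of miRPlus-A1086 ranged from -0.47 to 0.38 and was below 0 under 6 of the 7, and that of miRPlus-A1087 ranged from -0.35 to 0.51 and was below 0 under 4. For miRPlus-G1246-3p (-0.27 to 0.59) and miRPlus-C1110 (-0.14 to 0.72) the sign turned under spike-in scaling alone. Relative to the median of the detected catalogued probes, miRPlus-A1015, miRPlus-G1246-3p and miRPlus-C1110 lay above it and miRPlus-A1086 and miRPlus-A1087 below it. Quantile normalization and cyclic loess gave the same sides, while the other 5 scalings move all probes by one amount and cannot change them.

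A single candidate was above the floor on 1 array. miRPlus-I137* read 3.32 with sulforaphane and 6.97 with vehicle (411.5 and 777 background-subtracted units), so it was 60.2% of the floor on the sulforaphane array and 108% of it on the vehicle array. Its vehicle reading was 1.26 times the floor of the sulforaphane array on the authors' scale. As a bound on the fold between the arrays, this takes a reading near its own floor as exact. The bound was 1.14-fold on the unnormalized intensities. The log2 ratio of the readings was -1.07, which is no measured fold, since the sulforaphane reading was under the floor. The readings came with a local background of 55 units with sulforaphane and 37.5 with vehicle. Among the named human probes, detection with vehicle and not with sulforaphane was seen for 1.1% (14 of 1273), and detection with sulforaphane and not with vehicle for 3.46% (44). No miRPlus probe was in the second set.

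The probe that carries the same number in the public catalogue, hsa-miR-137, was dark on both arrays, at 0.105 with sulforaphane and 0.108 with vehicle. miR-137 is best known from neurons. The candidate named with the asterisk was thus brighter than the catalogued probe of its number on both arrays. The sources used here do not say which arm of the MIR137 hairpin either probe matches.

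The other asterisk names mostly showed the opposite order. Of the 14, 12 were dimmer than the brightest catalogued probe of their number on both arrays, which compares spots and not RNA amounts, and in 5 cases that catalogued probe was detected on both arrays. The exceptions were miRPlus-I137* and miRPlus-K1303*. miRPlus-K1303* read 0.681 with sulforaphane and 1.57 with vehicle, and hsa-miR-1303 read 0.484 with sulforaphane and 0.251 with vehicle, all under the floor.

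miRPlus-I320a* read 3.29 with sulforaphane and 2.48 with vehicle, under the floor on both arrays, beside hsa-miR-320a at 34.7 with sulforaphane and 25.2 with vehicle. miRPlus-I101-2* read 0.371 with sulforaphane and 0.161 with vehicle, beside hsa-miR-101-3p at 34.0 with sulforaphane and 25.2 with vehicle. miRPlus-I181d* read 0.452 with sulforaphane and 0.238 with vehicle, beside hsa-miR-181d at 18.5 with sulforaphane and 12.6 with vehicle. In these 3 cases the catalogued probe was far brighter than the candidate on both arrays, and the catalogued probes' log2 ratios were 0.46, 0.43 and 0.55.

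For miRPlus-I107* and miRPlus-J98* the candidate and the catalogued probe differed in the direction of their readings. miRPlus-I107* read 1.88 with sulforaphane and 3.18 with vehicle, while hsa-miR-107, a regulator of metabolic genes, read 11.7 with sulforaphane and 7.20 with vehicle (log2 ratio 0.70). miRPlus-J98* read 1.13 with sulforaphane and 2.43 with vehicle, while hsa-miR-98-5p, of the let-7 seed family, read 8.70 with sulforaphane and 6.66 with vehicle (log2 ratio 0.39). Both candidates were under the floor on both arrays, so their own ratios (-0.76 and -1.10) are differences between dim spots and not measured folds.

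In 3 further pairs the catalogued probe was above the floor with sulforaphane alone. The vehicle readings of these 3 catalogued probes were also under the lower floor of the sulforaphane array. hsa-miR-181b-5p read 6.69 with sulforaphane and 4.91 with vehicle beside miRPlus-I181b-2* at 0.149 with sulforaphane and 0.0897 with vehicle, the dimmest miRPlus probe on both arrays. hsa-miR-152 read 6.19 with sulforaphane and 4.51 with vehicle beside miRPlus-I152* at 0.532 with sulforaphane and 0.803 with vehicle. hsa-miR-128 read 5.524 with sulforaphane, barely over the floor of 5.515, and 3.91 with vehicle. Beside it, miRPlus-I128-1* read 0.492 with sulforaphane and 0.211 with vehicle.

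The remaining 4 pairs were under the floor on both arrays with both probes. miRPlus-I874* read 1.40 with sulforaphane and 1.54 with vehicle, close to hsa-miR-874 at 1.78 with sulforaphane and 1.82 with vehicle. miRPlus-I421* read 0.911 with sulforaphane and 0.408 with vehicle, and hsa-miR-421 read 3.98 with sulforaphane and 2.52 with vehicle. miRPlus-J376c* read 0.734 with sulforaphane and 0.332 with vehicle, and hsa-miR-376c-3p read 0.762 with sulforaphane and 0.646 with vehicle. miRPlus-J135a-2* read 0.278 with sulforaphane and 0.390 with vehicle, under hsa-miR-135a-5p at 1.78 with sulforaphane and 1.04 with vehicle. All of these readings were under the floor of their array, so no fold change between the arrays is drawn from them.

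Under the floor on both arrays were 42 of the 48 miRPlus probes. The nearest to it was miRPlus-A1072, at 4.44 with sulforaphane and 3.51 with vehicle, which is 80.4% of the floor on the sulforaphane array and 54.5% on the vehicle array. The next nearest with sulforaphane were miRPlus-I320a* (59.7% of the floor) and miRPlus-J1003 (2.32, with 1.36 on the vehicle array). With vehicle they were miRPlus-I107* (49.5%) and miRPlus-B1114 (47.0%), which read 1.42 with sulforaphane and 3.03 with vehicle. On the sulforaphane array no miRPlus probe lay between miRPlus-C1110 (11.9) and miRPlus-A1072 (4.44). On the vehicle array only miRPlus-I137* (6.97) lay between the same probes (8.06 and 3.51).

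At the dark end, miRPlus-I181b-2* was lowest on both arrays, at 18.5 background-subtracted units with sulforaphane and 10 with vehicle. miRPlus-L1006 read 0.165 with sulforaphane and 0.206 with vehicle, and miRPlus-J135a-2* was the third lowest with sulforaphane. On the vehicle array the next lowest were miRPlus-C1070 (0.395 with sulforaphane and 0.143 with vehicle) and miRPlus-I101-2*.

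Among the series with 4 or more probes, the A series had the highest medians on both arrays. Its 8 probes had a median of 3.06 with sulforaphane and 2.36 with vehicle, and they ran from 0.327 to 156 with sulforaphane and from 0.287 to 133 with vehicle. The 5 A-series probes under the floor were miRPlus-A1072, miRPlus-A1073, miRPlus-A1031, miRPlus-A1083 and miRPlus-A1025. miRPlus-A1073 read 1.69 with sulforaphane and 1.21 with vehicle, and miRPlus-A1031 read 0.633 with sulforaphane and 0.686 with vehicle. miRPlus-A1083 read 0.661 with sulforaphane and 0.287 with vehicle, and miRPlus-A1025 read 0.327 with sulforaphane and 0.318 with vehicle. The series therefore holds some of the brightest and some of the darkest candidates.

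The C series, the largest, had a median of 0.685 with sulforaphane and 0.561 with vehicle, and 10 of its 11 probes were under the floor. After miRPlus-C1110 the brightest of it with sulforaphane was miRPlus-C1087 (1.36, with 1.41 on the vehicle array). The 4 D-series probes ran from 0.339 to 1.12 with sulforaphane and from 0.269 to 1.42 with vehicle, and none was detected. In the G series, the 3 probes other than miRPlus-G1246-3p read 0.653 (miRPlus-G1140-3p), 0.528 (miRPlus-G1079-5p) and 0.448 (miRPlus-G1065-5p) with sulforaphane, and 0.709, 0.287 and 0.475 with vehicle. None of the 8 J-series probes was detected on either array, and their medians were 0.474 with sulforaphane and 0.372 with vehicle. The 10 I-series probes had medians of 0.722 with sulforaphane and 0.605 with vehicle.

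Between the arrays, the readings of the 42 dim candidates scattered widely. Their log2 ratios ran from -1.20 (miRPlus-K1303*) to 1.46 (miRPlus-C1070), with a median of 0.39 and an SD between probes of 0.73, against a median of 0.37 and an SD of 0.67 for the 1005 catalogued probes under the floor on both arrays. A ratio above 0 was seen for 26 of the 42, against 72.7% of the named human probes under the floor. A reading at least 2-fold higher with sulforaphane was seen for 8 of the 42, against 11.7%, and a reading at least 2-fold lower for 4, against 4.78%.

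The 8 higher readings were all very dim, between 0.371 and 0.911 with sulforaphane and between 0.143 and 0.408 with vehicle. They were miRPlus-A1083, miRPlus-C1049, miRPlus-C1070, miRPlus-J1002 and 4 asterisk names (miRPlus-I101-2*, miRPlus-I128-1*, miRPlus-I421* and miRPlus-J376c*). The 4 lower readings lay between 0.657 and 1.42 with sulforaphane and between 1.45 and 3.03 with vehicle, and belonged to miRPlus-B1114, miRPlus-C1100, miRPlus-J98* and miRPlus-K1303*. The 7 negative controls had log2 ratios from -0.56 to 1.04, of which 6 were above 0. Of these controls, 2 (28.6%) read at least 2-fold higher with sulforaphane, against 19.0% of the miRPlus probes under the floor on both arrays. At least 2-fold lower were 0 of the controls, against 9.52% of those miRPlus probes. With 7 controls these shares are coarse. Of the 4 lower readings, miRPlus-B1114 (3.03) and miRPlus-J98* (2.43) were above the highest negative control on the vehicle array (2.19). All 12 were under the viral floor on both arrays, so no fold change between the conditions is drawn from them.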

How the data were processed

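The members and lists were chosen with earlier results of these data known. Total RNA was extracted with TRIzol and miRNeasy columns, labelled with Hy3 and put on miRCURY LNA arrays, 1 per condition, per the labels' protocols. The scanner and the method of background estimation are not stated there. The deposited workbook holds, per the file headers, the foreground intensity, the background-subtracted intensity and a normalized value per probe. The deposited normalized value is a ratio, namely the background-subtracted intensity divided by 124 on the sulforaphane array and 111.5 on the vehicle array. The authors' deposited fold change equals the ratio of normalized values, sulforaphane over vehicle, to within 2.1e-14, and the series value table matched all 2661 probes to within 4.9e-08.

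The log2 ratio was taken between the normalized values of the arrays, with no value added. Every miRPlus probe above the floor on an array was named, with the 3 nearest under it and the 3 lowest on each array. The asterisk names, the probes in each letter series and the dim readings at least 2-fold apart were named with their values already known. Catalogued names were those containing hsa-miR- or hsa-let-, of which 21 list several miRNAs. Alternatives were other floors, 7 scalings (quantile and cyclic loess with limma 3.58.1 in R 4.3.3), the floor added before the logarithm, saturated probes left out and a 1.5-fold rule. A floor at the highest negative control and scaling by viral probes were added after seeing the data. Python 3.11.15, numpy 2.4.6 and pandas 2.3.3 were used, and the ratio step was tested on simulated data.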

Additional observations from a re-analysis of the deposited data

How the results depend on the processing

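No paired analysis was possible because each condition had 1 array. The number of miRPlus probes detected with sulforaphane (5) was 20 with the floor at the median of all probes and 11 with the floor at the highest negative control. The number with vehicle (6) was 19 and 11 under these floors, and 2 with the floor at the 99th percentile of the viral probes. The number on both arrays (5) was 16, 9 and 2 under these 3 floors. The other floors tried left these 3 counts between 4 and 6. With the floor at the median of all probes, the 1225 catalogued probes gave 606 with sulforaphane, 613 with vehicle and 540 on both. They gave 418, 342 and 320 at the highest negative control, and 73, 69 and 65 at the 99th percentile. At the 99th percentile with sulforaphane the miRPlus share (4 of 48) was above the catalogued share (73 of 1225), the reverse of the main setting. The count past 2-fold (1, higher with sulforaphane) was 4 with the floor at the median of all probes, 1 higher and 3 lower, where catalogued probes gave 19 higher and 32 lower. Among the catalogued probes above the main floor, 5 were higher and 2 lower on the authors' scale, 1 and 4 under summed intensity, quantile and cyclic loess, and 1 and 5 by other small RNA probes. The miRPlus count past 2-fold was 0 with the 99th-percentile floor and with the floor added before the logarithm. It was also 0 under every scaling tried apart from no normalization and the viral probes. Relative to the authors' scale, the median log2 ratio of the detected named human probes moved by 0.15 without normalization, and by -0.31 to -0.70 under the other 6 planned scalings. The median log2 ratio of the 5 detected miRPlus probes (0.43) was 0.13 after scaling by the median of detected named human probes, 0.089 by the summed intensity of all named human probes, 0.098 under quantile normalization, 0.052 under cyclic loess, 0.040 by other small RNA probes and -0.27 by spike-in probes. Under the same 6 scalings in that order, the ratio of miRPlus-A1086 was -0.077, -0.11, -0.15, -0.23, -0.16 and -0.47. The ratio of miRPlus-A1087 was -0.067 under quantile normalization, -0.054 under cyclic loess, -0.036 by other small RNA probes and -0.35 by spike-in probes. By spike-in probes the ratio of miRPlus-G1246-3p was -0.27 and that of miRPlus-C1110 was -0.14. A shift counted as moved where it exceeded 0.20, the SD between spike-in probes. Signal over background limits the 42 dim probes, whose ratios are not measured folds.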
